A study of Mus musculus with 27 samples.

Results

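The 43 genes described here encode proteins of DNA repair and of the DNA damage checkpoint. They were chosen by symbol, with earlier results of these data known. All 43 were found among the 19392 genes of the expression table, and all 43 were among the 18188 genes tested. By pathway, 14 genes belong to homologous recombination, 7 to the Fanconi pathway, 3 to mismatch repair, 8 to nucleotide excision repair, 6 to base excision repair and 5 to the checkpoint.

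Each of these pathways deals with a different kind of damage. Base excision repair removes single oxidized, deaminated or alkylated bases, nucleotide excision repair cuts out a short stretch around a bulky lesion, and mismatch repair corrects errors left by replication. Homologous recombination and the Fanconi pathway mend double-strand breaks and crosslinks with the help of the sister chromatid, and many of their genes are transcribed as cells enter S phase. The checkpoint kinases ATR and ATM sense the damage and signal through CHEK1 and CHEK2 to hold the cell cycle. In the kidney, most tubular cells are quiescent until injury, after which surviving cells can re-enter the cell cycle.

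Left kidneys of 27 C57BL/6 mice were sequenced, from the unilateral ischemia reperfusion model with removal of the opposite kidney (uIRIx). Groups of 3 mice differed in how long blood flow to the left kidney was stopped, which was 0 (sham), 16, 18, 20, 22, 24, 26, 28 or 30 min, on a heating platform, and each had 24 h of reperfusion with that kidney alone. Sham mice went through the same removal of the right kidney, so every comparison with 0 min is against a remaining single kidney, and all of these comparisons share the same 3 control kidneys. Sex and age are not given in the sources used here.

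Values are in FPKM, which divides the fragments of a gene by its transcript length and by the mapped total, and so give a level that can be set side by side between genes. Fold changes and their standard errors (SE) are on the scale of log2(FPKM + 1) after quantile normalization, which understates the change of genes at low FPKM. A gene was called a differentially expressed gene (DEG) when its absolute log2 fold change was above 1 and its Benjamini-Hochberg adjusted p-value from limma was under 0.05. "Rose" and "fell" are used for an adjusted p-value under 0.05 alone. The summed FPKM of a kidney lay between 512453 and 554036, and 16498 to 16904 genes were above 0. Markers of the nephron were present in all groups, with mean Slc34a1, the phosphate transporter of the proximal tubule, at 2230 FPKM at 0 min and 440 FPKM at 30 min. These are whole kidneys, in which fewer cells of a type and less RNA per cell cannot be told apart.

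Promoter windows of 300 bases, from 250 before to 50 after the transcription start, were found in the RefSeq table (GRCm38.p6) for 36 of the 43 genes. They were searched on both strands for the E2F motif, written as TTTGGCGC, TTTCGCGC or TTTCCCGC, which is known from promoters of S phase genes. Windows of 8 of the 36 genes, or 22.2%, held it, against 1.91% of the 27025 genes of the table. For this and the other motifs, that comparison was not limited to genes tested here, nor matched for the base composition of the windows. The 8 genes were Bard1, Brca2 and Rad51c of recombination, Fancg, Msh3 and Msh6, and Chek2 and Topbp1 of the checkpoint. None of the 5 windows of nucleotide excision genes and none of the 6 of base excision genes held these letters. The following 4 stretches are examples, with the motif in capitals, from genes that rose at 28 min against 0 min. Fancg, which also rose there, and Msh3, which did not pass the test at 28 min, have matches upstream too. Those of Msh3 begin 202 and 198 bases before the start, and Msh3 fell at 30 min. The matches of Rad51c and Msh6 lie after the start. Positions are GRCm38.p6, and each sequence is written 5′ to 3′ on the strand of its gene.
Bard1 (chr1:71103154-71103201, minus strand, motif beginning 209 bases before the start): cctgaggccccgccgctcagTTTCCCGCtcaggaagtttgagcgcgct
Brca2 (chr5:150522433-150522480, plus strand, motif beginning 168 bases before the start): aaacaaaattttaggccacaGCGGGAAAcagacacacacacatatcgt
Chek2 (chr5:110839811-110839858, plus strand, motif beginning 152 bases before the start): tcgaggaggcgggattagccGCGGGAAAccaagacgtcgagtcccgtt
Topbp1 (chr9:103305178-103305225, plus strand, motif beginning 129 bases before the start): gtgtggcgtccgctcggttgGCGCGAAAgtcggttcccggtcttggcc

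The CCAAT box, bound by the factor NF-Y, was present in 20 of the 36 windows (55.6%), against 37.9% of all windows. Its letters do not overlap those of the E2F motif. The CHR element, written as TTTGAA or TTCGAA and known from genes expressed late in the cell cycle, was present in 5 of the 36 windows (13.9%), against 19.4% of all. The windows of Ung and Chek1, the genes with the largest log2 fold changes at 28 min, held none of the 3 motifs. Those of the recombination genes Brca1, Rad51ap1 and Rad54l held no E2F motif of these letters but a CCAAT box close to the start. They are shown as the recombination DEGs with a window in the table, with the box in capitals (ATTGG where it lies on the other strand). A match is a run of letters and not a measured binding site.
Brca1 (chr11:101552017-101552061, minus strand): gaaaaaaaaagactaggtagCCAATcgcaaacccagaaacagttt
Rad51ap1 (chr6:126939599-126939643, minus strand): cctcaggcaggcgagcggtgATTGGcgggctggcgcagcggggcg
Rad54l (chr4:116123716-116123760, minus strand): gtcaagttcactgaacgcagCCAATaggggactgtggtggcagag

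By the mean FPKM per group, 35 of the 43 genes were lowest in the sham kidneys. The share of all genes that were lowest there was not counted. At 28 min 21 of the 43 were highest, more than at any other time. Of all genes tested, 17% were highest at 28 min and 26.4% at 30 min, where only 4 repair genes peaked, namely Rad52, Xrcc3, Ercc1 and Ercc5. A further 7 genes peaked at 26 min and 5 at 18 min, where 6.01% and 8.56% of all genes did. Xpa and Xpc were highest at 0 min, where 19% of all genes were. Against 0 min, 32 of the 43 genes rose and 2 fell at 28 min, where 24.5% of all genes rose and 23.6% fell. At 30 min 14 rose and 4 fell, where 26.9% of all genes rose and 25.4% fell. The median log2 fold change over the 43 genes was 0.53 at 28 min and 0.20 at 30 min, against 0 over all genes in both comparisons.

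**Figure D1:**
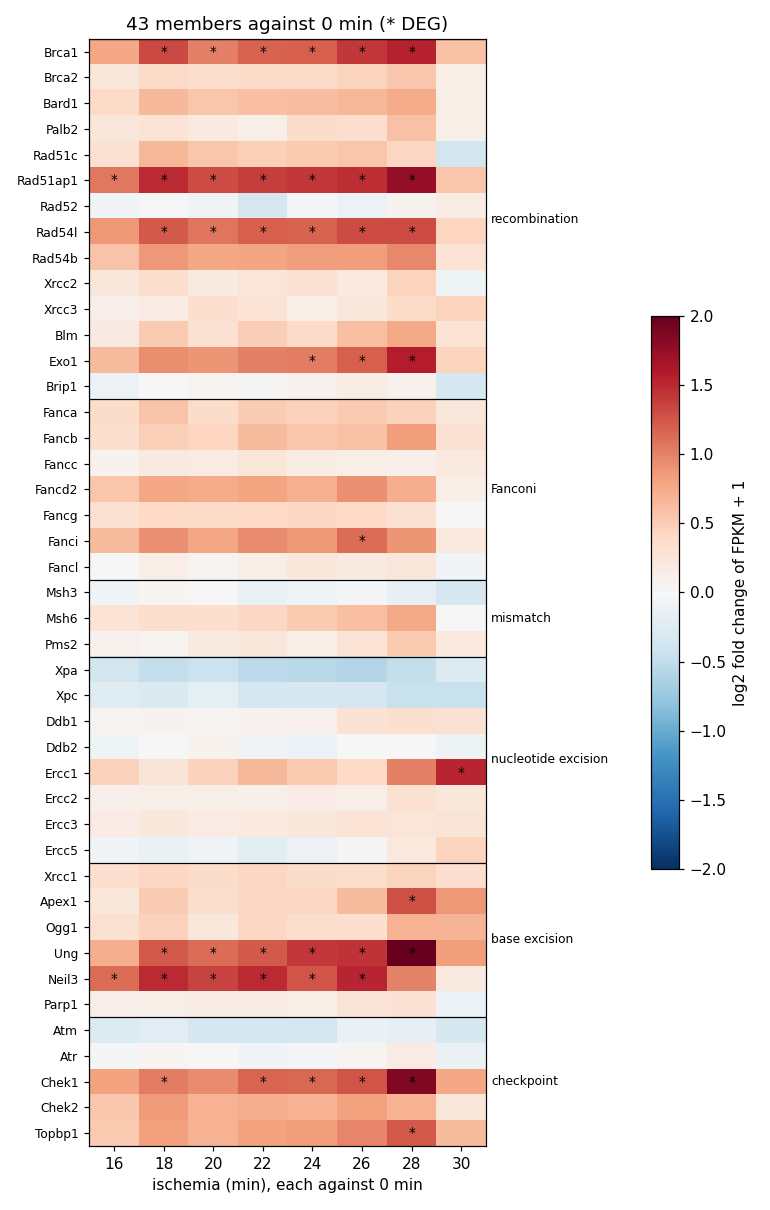
Log2 fold change of each of the 43 genes against 0 min (colour) at 8 ischemia times (columns), from limma on log2(FPKM + 1), with genes in rows grouped by pathway. Brca1, Rad51ap1, Exo1, Ung and Chek1 are strongest at 28 min and paler at 30 min, Fanci and Fancd2 are strongest at 26 min, and Ercc1 at 30 min.

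By pathway, the mean of log2(FPKM + 1) over the recombination genes was 0.95 ± 0.05 (SD, n = 3 kidneys) at 0 min, 1.74 ± 0.06 at 28 min and 1.14 ± 0.22 at 30 min. The base excision genes followed the same order, at 2.74 ± 0.05, 3.70 ± 0.05 and 3.21 ± 0.18. The nucleotide excision genes did not, since their mean was 3.66 ± 0.02 at 0 min, 3.80 ± 0.02 at 28 min and 3.90 ± 0.09 at 30 min. These means are given as levels, without a test.

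**Figure D2:**
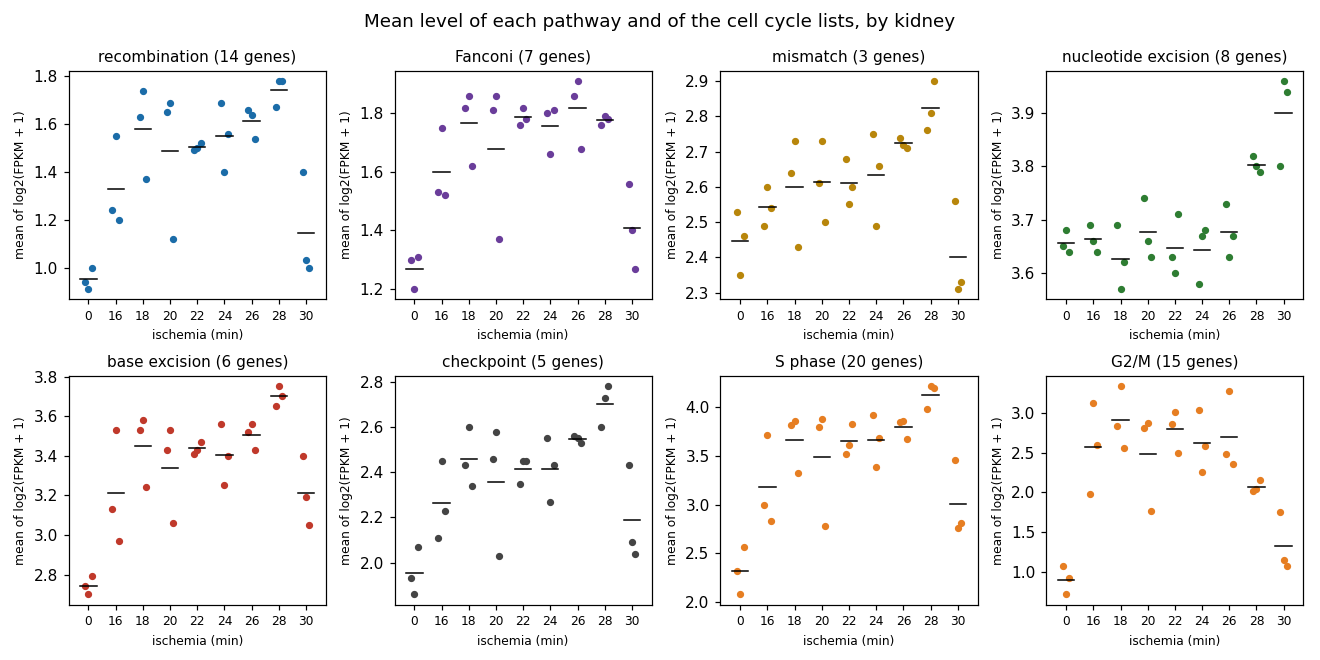
Mean log2(FPKM + 1) over the genes of each pathway in each kidney (points) and group (line) against ischemia time in min, 3 kidneys per time. At 30 min the recombination mean is back near the sham level, 1.14 against 0.95, and the nucleotide excision mean is at its highest, 3.90.

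Among the 14 recombination genes, 11 rose and none fell at 28 min against 0 min, and 4 were DEGs. There 24.5% of all genes rose, 23.6% fell and 8.48% were DEGs. Brca1, which promotes the resection of broken ends and helps bring in the recombinase, was at 0.33, 0.41 and 0.51 FPKM in the 3 sham kidneys. Over the 18 kidneys clamped for 16 to 26 min its lowest, median and highest values were 0.99, 2.58 and 3.53 FPKM. At 28 min it was at 3.21, 3.37 and 3.54 FPKM, and at 30 min at 2.22, 0.64 and 1.09 FPKM. Every ischemic kidney lay above every sham kidney, and the 3 kidneys at 30 min lay below those at 28 min. The log2 fold change was 1.54 (SE 0.24, adjusted p = 2.4e-05) at 28 min and 0.58 (SE 0.24, adjusted p = 0.047) at 30 min against 0 min. The second of these was lost in 8 of the alternatives, 5 of them the removal of a single kidney (30 min replicate 1 or 3, or any of the 3 at 0 min), with log2 fold changes of 0.32 to 0.65.

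Rad51ap1, a partner of the recombinase in strand pairing, had the largest change of the recombination genes at 28 min on the log2(FPKM + 1) scale, while the ratio of mean FPKM to sham was larger for Exo1 (13.1 against 8.72). It was at 0.52, 0.23 and 0.76 FPKM at 0 min, and 1.54, 3.30 and 4.68 FPKM were its lowest, median and highest values from 16 to 26 min. It was at 3.68, 4.46 and 5.03 FPKM at 28 min, and at 2.62, 0.73 and 0.97 FPKM at 30 min. At 30 min 1 kidney was within the range of the sham kidneys, and replicate 1 was well above the other two. The log2 fold change was 1.76 (SE 0.29, adjusted p = 5e-05) at 28 min and 0.56 (SE 0.29, adjusted p = 0.12) at 30 min.

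Exo1, the nuclease that resects broken ends and also acts in mismatch repair, was at 0.13, 0.11 and 0.37 FPKM at 0 min and between 0.46 and 2.21 FPKM (median 1.60) from 16 to 26 min. It reached 2.23, 3.16 and 2.58 FPKM at 28 min and was at 1.34, 0.37 and 0.47 FPKM at 30 min. All kidneys at 28 min lay above all others, and at 30 min 1 kidney equalled the highest sham kidney. The log2 fold change at 28 min was 1.57 (SE 0.23, adjusted p = 1.4e-05).

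Rad54l, the motor protein that remodels recombination intermediates, was at 0.44, 0.12 and 0.25 FPKM at 0 min, 0.59, 2.04 and 2.75 FPKM (lowest, median, highest) from 16 to 26 min, 2.13, 2.19 and 2.27 FPKM at 28 min, and 1.13, 0.51 and 0.67 FPKM at 30 min. The levels from 16 to 26 min and at 28 min overlapped, and its log2 fold change at 28 min was 1.31 (SE 0.23, adjusted p = 7.6e-05). Rad52, which anneals single strands, kept a different course. It was at 4.04, 4.32 and 4.11 FPKM at 0 min, between 2.82 and 4.85 FPKM (median 4.4) from 16 to 26 min, 4.66, 5.03 and 4.96 FPKM at 28 min, and 5.75, 5.12 and 4.87 FPKM at 30 min, with a log2 fold change of 0.15 (SE 0.10, adjusted p = 0.22) at 30 min. It was the recombination gene with the highest mean FPKM.

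Among the remaining recombination genes, Brca2, which delivers the recombinase to single strands, went from 0.327 ± 0.0551 FPKM (SD, n = 3) at 0 min to 0.980 ± 0.203 FPKM at 28 min and 0.527 ± 0.085 FPKM at 30 min. Bard1, the partner of BRCA1, went from 0.290 ± 0.03 to 1.19 ± 0.0551 and 0.477 ± 0.281 FPKM. Xrcc2, a paralog of the recombinase, had the smallest change at 30 min of the pathway. It was at 1.57, 1.80 and 1.78 FPKM at 0 min, between 1.95 and 3.41 FPKM (median 2.54) from 16 to 26 min, 2.67, 3.34 and 3.13 FPKM at 28 min and 1.94, 1.97 and 1.41 FPKM at 30 min, where the range held all sham kidneys. Rad54b, a relative of Rad54l, went from 0.240 ± 0.0608 to 1.43 ± 0.167 and 0.577 ± 0.354 FPKM, and Blm, the helicase that unwinds recombination intermediates, from 0.430 ± 0.0954 to 1.51 ± 0.113 and 0.833 ± 0.228 FPKM. Palb2, which bridges BRCA1 and BRCA2, went from 0.600 ± 0.157 to 1.52 ± 0.17 and 0.880 ± 0.408 FPKM. Among the other paralogs of the recombinase, Rad51c was at 1.38 ± 0.21, 2.46 ± 0.683 and 1.06 ± 0.543 FPKM at 0, 28 and 30 min, and Xrcc3 at 3.07 ± 0.309, 4.77 ± 0.324 and 5.12 ± 1.0 FPKM. Xrcc3 rose at both 28 and 30 min. Its exons overlap those of Klc1 on the opposite strand, whose mean was 13.5 FPKM at 0 min and 26.4 FPKM at 30 min. Of the 14 genes, Brip1, the helicase bound to BRCA1, fell at 30 min against 0 min, from 1.08 ± 0.191 to 0.777 ± 0.185 FPKM.

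Of the 7 Fanconi genes, 5 rose at 28 min and none was a DEG, where 24.5% of all genes rose and 8.48% were DEGs. Fanci, whose protein pairs with FANCD2 and is ubiquitinated at a crosslink, peaked earlier. It was at 0.28, 0.14 and 0.22 FPKM at 0 min, 0.40, 1.54 and 2.31 FPKM (lowest, median, highest) from 16 to 26 min, 1.10, 1.37 and 1.34 FPKM at 28 min, and 0.62, 0.36 and 0.31 FPKM at 30 min. All ischemic kidneys were above all sham kidneys, by little at 30 min. It was a DEG at 26 min only, with a log2 fold change of 1.11 (SE 0.21, adjusted p = 0.00058), against 0.89 at 28 min. Its partner Fancd2 also peaked at 26 min, at 1.24 ± 0.35 FPKM (SD, n = 3), from 0.147 ± 0.085 FPKM at 0 min. Fancl, the ubiquitin ligase of the pathway and its gene with the highest mean FPKM, passed the test in none of the 11 comparisons. It was at 4.09, 3.22 and 3.64 FPKM at 0 min, between 3.65 and 5.52 FPKM (median 4.44) from 16 to 26 min, 4.94, 5.50 and 4.41 FPKM at 28 min and 4.78, 4.11 and 3.0 FPKM at 30 min, and its groups at 0 and 30 min overlapped. Of the core complex, Fanca was at 1.75 ± 0.163, 3.15 ± 0.151 and 2.51 ± 0.501 FPKM at 0, 28 and 30 min, Fancb at 0.440 ± 0.174, 1.67 ± 0.177 and 0.843 ± 0.182 FPKM, and Fancc, which alone of the 7 rose at 30 min, at 2.43 ± 0.243, 2.99 ± 0.0666 and 3.29 ± 0.26 FPKM. Fancg, of the same complex, was at 2.32, 2.73 and 2.58 FPKM at 0 min, between 2.93 and 4.72 FPKM (median 4.25) from 16 to 26 min, 3.99, 3.89 and 3.45 FPKM at 28 min and 3.12, 2.82 and 2.59 FPKM at 30 min, where 1 kidney was within the sham range.

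In mismatch repair, Msh6 and Pms2 rose at 28 min, whereas Msh3 did not pass the test at 28 min and fell at 30 min. Msh6, which recognizes base mismatches, was at 6.89, 5.65 and 6.29 FPKM at 0 min, between 7.34 and 11.86 FPKM (median 9.56) from 16 to 26 min, at 11.21, 13.30 and 13.40 FPKM at 28 min, and at 9.24, 5.92 and 6.05 FPKM at 30 min. At 30 min 2 of the 3 kidneys were within the range of the sham kidneys. Its log2 fold change was 0.76 (SE 0.13, adjusted p = 8.7e-05) at 28 min and 0.01 (SE 0.13, adjusted p = 0.98) at 30 min. Pms2, the endonuclease subunit of the pathway, was at 1.36 ± 0.142 FPKM (SD, n = 3) at 0 min, 2.72 ± 0.155 FPKM at 28 min and 1.92 ± 0.414 FPKM at 30 min. Msh3, which recognizes insertion loops, had 6.56 ± 0.912 FPKM (SD, n = 3) at 0 min and 5.48 ± 0.0153 FPKM at 30 min, with a log2 fold change of -0.33 (SE 0.08, adjusted p = 0.0011).

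Of the 5 checkpoint genes, the effector kinases and TOPBP1 rose at 28 min, and the sensor kinases did not pass the test there. Chek1, the kinase that acts downstream of ATR in S phase, was at 0.54, 0.42 and 1.18 FPKM at 0 min, and its lowest, median and highest values from 16 to 26 min were 1.23, 3.12 and 4.13 FPKM. It was at 4.22, 6.27 and 6.51 FPKM at 28 min and at 3.61, 1.41 and 1.62 FPKM at 30 min. The 3 kidneys at 28 min lay above all the others. The log2 fold change was 1.85 (SE 0.27, adjusted p = 1.4e-05) at 28 min and 0.78 (SE 0.27, adjusted p = 0.023) at 30 min. The call at 30 min was lost without 30 min replicate 1 (0.50), without 0 min replicate 1 (0.70) or 2 (0.66), and with only the groups compared in the fit (0.76).

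Topbp1, which activates ATR, was at 3.86, 3.30 and 4.89 FPKM at 0 min, 5.40, 9.02 and 11.43 FPKM (lowest, median, highest) from 16 to 26 min, 10.76, 12.87 and 12.13 FPKM at 28 min, and 8.77, 6.59 and 7.0 FPKM at 30 min. Every ischemic kidney was above every sham kidney. It rose by 1.22 (SE 0.18, adjusted p = 1.1e-05) at 28 min and by 0.63 (SE 0.18, adjusted p = 0.005) at 30 min on the log2 scale. Chek2, the kinase downstream of ATM, was at 3.50 ± 0.625 FPKM (SD, n = 3) at 0 min, 6.98 ± 0.791 FPKM at 28 min and 4.77 ± 0.766 FPKM at 30 min. Atr passed the test in none of the 11 comparisons. It was at 4.28, 4.62 and 4.70 FPKM at 0 min, between 4.23 and 6.06 FPKM (median 5.06) from 16 to 26 min, 5.75, 5.39 and 6.16 FPKM at 28 min and 5.13, 4.50 and 3.98 FPKM at 30 min, where the range held all sham kidneys. Atm fell at 30 min, from 1.82 ± 0.144 to 1.43 ± 0.205 FPKM (log2 fold change -0.32, SE 0.08, adjusted p = 0.0013). It also fell at each time from 16 to 24 min, with log2 fold changes of -0.22 to -0.35, and did not pass the test at 26 min.

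All 6 base excision genes rose at 28 min, and 2 were DEGs, where 24.5% of all genes rose and 8.48% were DEGs. Ung, the glycosylase that removes uracil, had the largest change of the 43 genes on the log2(FPKM + 1) scale. As a ratio of mean FPKM at 28 min to 0 min it was at 6.51, below Exo1 (13.1), Rad51ap1 (8.72), Rad54l (8.14), Brca1 (8.1), Neil3 (8.04) and Chek1 (7.94). It was at 1.67, 1.43 and 2.18 FPKM at 0 min, and its lowest, median and highest values from 16 to 26 min were 1.95, 6.37 and 8.98 FPKM. It was at 11.46, 12.37 and 10.56 FPKM at 28 min and at 6.48, 3.58 and 3.68 FPKM at 30 min. The kidneys at 28 min lay above all others, and those at 30 min between sham and 28 min. Its log2 fold change was 2.02 (SE 0.26, adjusted p = 2.4e-06) at 28 min and 0.84 (SE 0.26, adjusted p = 0.0094) at 30 min, and the call at 30 min was lost without 30 min replicate 1 (0.61).

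Apex1, the endonuclease that cuts at the abasic site left by a glycosylase, stepped up between 26 and 28 min. It was at 14.99, 17.09 and 20.21 FPKM at 0 min, between 15.29 and 33.49 FPKM (median 25.6) from 16 to 26 min, at 45.98, 48.02 and 45.95 FPKM at 28 min, and at 40.90, 36.61 and 26.23 FPKM at 30 min. No kidney outside the 28 min group reached its values. Its log2 fold change was 1.28 (SE 0.19, adjusted p = 1.7e-05) at 28 min and 0.86 (SE 0.19, adjusted p = 0.00083) at 30 min. Ogg1, the glycosylase for oxidized guanine, was at 5.79 ± 0.15 FPKM (SD, n = 3) at 0 min, 8.35 ± 0.613 FPKM at 26 min, 11.2 ± 0.777 FPKM at 28 min and 10.8 ± 1.28 FPKM at 30 min. It rose by 0.68 (SE 0.09, adjusted p = 4.3e-06) at 30 min against 0 min on the log2 scale.

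Xrcc1, the scaffold of single-strand break repair, was at 9.72 ± 0.99, 15.1 ± 0.72 and 13.5 ± 1.39 FPKM at 0, 28 and 30 min and rose at both. Neil3, a glycosylase known from dividing cells, had its highest mean at 26 min. It was at 0.20, 0.19 and 0.11 FPKM at 0 min, 0.90, 2.19 and 3.87 FPKM (lowest, median, highest) from 16 to 26 min, 1.05, 1.45 and 1.52 FPKM at 28 min, and 0.66, 0.13 and 0.43 FPKM at 30 min. All kidneys from 16 to 28 min were above all sham kidneys, and 1 kidney at 30 min was within the sham range. The log2 fold change was 1.53 (SE 0.28, adjusted p = 0.00043) at 26 min, 0.99 (SE 0.28, adjusted p = 0.0061) at 28 min and 0.20 (SE 0.28, adjusted p = 0.59) at 30 min. Parp1, which binds strand breaks and marks them with poly-ADP-ribose, was at 13.92, 13.23 and 13.56 FPKM at 0 min, between 14.32 and 19.07 FPKM (median 16.5) from 16 to 26 min, 18.60, 20.38 and 17.59 FPKM at 28 min and 14.99, 14 and 11.98 FPKM at 30 min. The range at 30 min held all sham kidneys. Its rise at 28 min (log2 fold change 0.29, SE 0.09, adjusted p = 0.0096) was lost without 28 min replicate 2 (0.24).

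The 8 nucleotide excision genes split. Ercc1, the partner of the XPF nuclease that cuts on the 5′ side of a lesion, was the only one of the 43 genes that was a DEG at 30 min against 0 min. With a pseudocount of 0.1 FPKM 7 genes were DEGs there, and 3 with rescaling to a constant sum (TPM). It was at 9.18, 10.13 and 11.60 FPKM at 0 min, 11.04, 16.2 and 20.15 FPKM (lowest, median, highest) from 16 to 26 min, 24.13, 24.35 and 23.26 FPKM at 28 min, and 28.34, 35.62 and 35.97 FPKM at 30 min. The groups at 28 and 30 min overlapped neither each other nor any shorter time. It rose by 1.0 (SE 0.15, adjusted p = 1.6e-05) at 28 min and by 1.52 (SE 0.15, adjusted p = 5.6e-08) at 30 min on the log2 scale, the first of these not past the fold threshold of a DEG. In the annotation (GENCODE, GRCm38) exons of Ercc1 overlap those of Cd3eap on the opposite strand, by a length that was not measured. The mean FPKM of Cd3eap was 5.16 at 0 min, 9.94 at 28 min and 9.37 at 30 min. The use of strand in counting is not stated, so reads of the shared stretch cannot be told apart. Such an overlap was found for 16 of the 43 genes, of which 15 overlap a protein-coding gene on the opposite strand only. Among the DEGs, Rad54l overlaps Lrrc41 (mean of 14.3 FPKM at 0 min and 19.4 FPKM at 28 min). Fanci overlaps Polg (8.01 and 10.5 FPKM) and Apex1 overlaps Pip4p1 (19.4 and 21.6 FPKM).

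Ercc5, the nuclease for the 3′ side, also had its highest mean at 30 min, with 4.53 ± 0.276 FPKM (SD, n = 3) at 0 min, 6.02 ± 0.519 FPKM at 28 min and 7.18 ± 0.824 FPKM at 30 min. Its log2 fold change at 30 min was 0.44 (SE 0.08, adjusted p = 9.9e-05). The helicases of the transcription factor TFIIH that open the lesion rose at both times. Ercc2 was at 5.79 ± 0.0666, 8.16 ± 0.218 and 7.67 ± 0.268 FPKM at 0, 28 and 30 min, and Ercc3 at 10.4 ± 0.277, 14 ± 0.488 and 13.6 ± 1.11 FPKM. Ddb1, a subunit of the ubiquitin ligase that marks ultraviolet lesions and of many other ligases, was the most abundant of the 43 genes, at 72.17, 74.41 and 73.94 FPKM at 0 min, between 74.73 and 97.49 FPKM (median 81.6) from 16 to 26 min, 98.31, 99.47 and 93.89 FPKM at 28 min, and 90.21, 92.60 and 91.12 FPKM at 30 min. Neither the 28 nor the 30 min group overlapped with sham, and the log2 fold change at 30 min was 0.31 (SE 0.06, adjusted p = 0.00021). Its partner Ddb2 passed the test in none of the 11 comparisons. It was at 4.0, 3.75 and 4.18 FPKM at 0 min, between 3.42 and 6.45 FPKM (median 4.13) from 16 to 26 min, 3.96, 4.71 and 4.72 FPKM at 28 min and 4.05, 3.92 and 4.24 FPKM at 30 min, and its groups overlapped.

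The damage sensors Xpc and Xpa were the 2 genes that fell at 28 min. Both also fell at each time from 16 to 26 min. Their log2 fold changes there were -0.37 to -0.58 for Xpa and -0.2 to -0.33 for Xpc, and the calls at 16 min were lost without quantile normalization. Xpc, which finds helix distortions, went from 13.50, 13.23 and 12.57 FPKM at 0 min to 10.54, 10.80 and 9.88 FPKM at 28 min and 10.13, 10.16 and 10.48 FPKM at 30 min, with log2 fold changes of -0.45 (SE 0.07, adjusted p = 1.7e-05) and -0.44 (SE 0.07, adjusted p = 1.5e-05). No kidney at 28 or 30 min reached a sham kidney. Xpa, which verifies the lesion, went from 13.39, 14.38 and 13.13 FPKM at 0 min to 10.38, 10.42 and 10.75 FPKM at 28 min (log2 fold change -0.48, SE 0.13, adjusted p = 0.0034). At 30 min it was at 9.09, 14.39 and 13.48 FPKM, a range that held all sham kidneys.

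The shortest clamp time already moved part of the genes. At 16 min against 0 min, 13 genes rose and 3 fell, where 9.43% of all genes rose and 9.61% fell. Only Rad51ap1 and Neil3 were DEGs, with log2 fold changes of 1.05 (SE 0.29, adjusted p = 0.017) and 1.11 (SE 0.28, adjusted p = 0.0095), where 2.25% of all genes were DEGs. Calls of this comparison were lost without single kidneys. Without 16 min replicate 2, none of the 43 genes rose or fell and 0 were DEGs; without 0 min replicate 2, 1 rose, none fell and 1 was a DEG. With only the groups compared in the fit, none rose or fell. The share of all genes called in these smaller fits was not counted, so a general loss of calls cannot be told apart. Without quantile normalization 22 rose and none fell, so that the falls of Xpa, Xpc and Atm at 16 min were lost (log2 fold changes of -0.26, -0.14 and -0.12).

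At the longer times up to 26 min the count of DEGs among the 43 genes at 18, 20, 22, 24 and 26 min was 6, 5, 6, 7 and 8, all of them higher than in sham kidneys. Of all genes, 3.06%, 2.51%, 3.29%, 3.12% and 3.77% were DEGs at these times in either direction. Brca1, Rad51ap1, Rad54l, Ung and Neil3 were DEGs at each of the 5 times. At 26 min 27 genes rose and 2 fell, where 14.9% of all genes rose and 15.2% fell. The count at 20 min was 3 without 20 min replicate 1, 2 without 20 min replicate 2 and 9 without 20 min replicate 3, and it was 3 with only the groups compared in the fit. Calls over all genes in these smaller fits were not counted.

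At 28 min 8 of the 43 genes were DEGs, namely Brca1, Rad51ap1, Rad54l, Exo1, Apex1, Ung, Chek1 and Topbp1, where 8.48% of all genes were. At 30 min 1 of the 43 was, where 10.7% of all genes were, and a second was called without 30 min replicate 3. With a pseudocount of 0.1 FPKM the counts were 18 at 28 min and 7 at 30 min, where 14.4% and 18% of all genes were DEGs. With rescaling to a constant sum they were 16 and 3, where 10.5% and 13.1% of all genes were. Between 26 and 28 min no repair gene was a DEG, where 1.5% of all genes were. limma gave 9 of the 43 an unadjusted p under 0.05 there, where 31% of all genes had one, and 3 rose, where 10.8% of all genes rose and 8.52% fell. These were Ercc1 (log2 fold change 0.60, SE 0.15, adjusted p = 0.0085), Apex1 (0.65, SE 0.19, adjusted p = 0.025) and Ogg1 (0.37, SE 0.09, adjusted p = 0.009). The call for Apex1 was lost without 26 min replicate 1 or 2 or any 1 of the 28 min kidneys, at log2 fold changes of 0.57 to 0.67.

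The step from 28 to 30 min went the other way. Of the 43 genes 22 fell and 1, Ercc1, rose, where 6.77% of all genes fell and 6.47% rose. The 22 comprised 12 of the 14 recombination genes, 3 of 7 Fanconi, 2 of 3 mismatch, 2 of 6 base excision, 3 of 5 checkpoint and none of the 8 nucleotide excision genes. The 4 DEGs, where 1.05% of all genes were, all fell, with log2 fold changes of -1.20 for Rad51ap1 (SE 0.29, adjusted p = 0.011), -1.13 for Exo1 (SE 0.23, adjusted p = 0.0042), -1.18 for Ung (SE 0.26, adjusted p = 0.0056) and -1.07 for Chek1 (SE 0.27, adjusted p = 0.014). Parp1 fell by 0.40 (SE 0.09, adjusted p = 0.0052) and Msh6 by 0.75 (SE 0.13, adjusted p = 0.0014) on the log2 scale. The call for Ercc1 (0.52, SE 0.15, adjusted p = 0.026) was lost without 30 min replicate 2 or 3, without any 1 of the 28 min kidneys, without quantile normalization and with only the groups compared, at 0.45 to 0.54. The count of genes that fell was 9 without 30 min replicate 2, 5 without 30 min replicate 3 and 9 without 28 min replicate 3, with 2 DEGs in each case. A fit of only the 28 and 30 min groups called 0 of the 43 genes in either direction. The share of all genes called in these smaller fits was not counted.

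**Figure D3:**
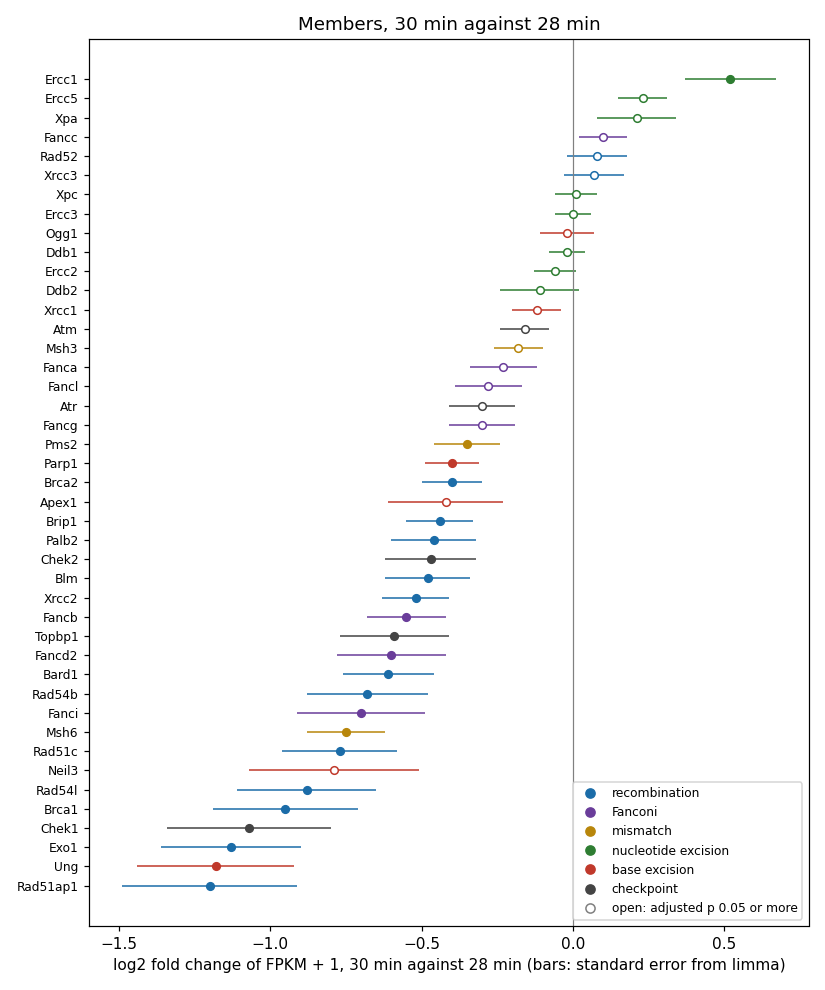
Log2 fold change at 30 min against 28 min of the 43 genes by pathway (points), with bars of 1 SE from limma over 3 kidneys a group. The recombination genes lie at or below 0.08, down to -1.20 for Rad51ap1, and Ercc1 is highest at 0.52.

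Set against the mean of the 6 groups from 16 to 26 min, 30 min had 7 genes higher and 20 lower, where 28.6% of all genes were higher and 21.5% lower. The 7 were Rad52, Xrcc3, Ddb1, Ercc1, Ercc5, Apex1 and Ogg1. Ercc1 (log2 fold change 1.07, SE 0.11, adjusted p = 1.9e-07) and Neil3 (-1.17, SE 0.21, adjusted p = 0.00012) were the 2 DEGs, where 5.82% of all genes were. Without 30 min replicate 1 there were 4 DEGs, and without 30 min replicate 3 there was 1.

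S phase genes moved at the same times as the recombination genes, and G2/M genes had a different course. From a list of 20 S phase genes, among them the replicative helicase subunits Mcm3 and Mcm5, cyclin E1 (Ccne1) and the ribonucleotide reductase subunit Rrm2, all 20 rose at 28 min against 0 min and all 20 fell at 30 min against 28 min. Their summed FPKM was 93.1 to 143 at 0 min, 437 to 514 at 28 min and 173 to 299 at 30 min. From a list of 15 G2/M genes, all 15 rose at 16 min and 1 rose at 30 min, and their summed FPKM was 8.01 to 16 at 0 min, 89.9 to 161 at 18 min, 50.8 to 58.5 at 28 min and 18.2 to 40.2 at 30 min. The part of cell cycle entry in the levels of the repair genes was not tested.

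At several of the times, single kidneys stood apart in the same way in the 11 DEGs and in both cell cycle lists. At 16 min replicate 2 had the highest value of its group for all 11 DEGs and for all 20 S phase genes. At 20 min replicate 3 had the lowest value for all 11 and all 20, and at 18 min replicate 3 for 10 of 11 and all 20. At 30 min replicate 1 had the highest value for 10 of 11 and all 20. Over all genes tested these kidneys held that rank for 30.4%, 32.8%, 32.3% and 36.7%. In the G2/M list they held it for 15, 15, 14 and 15 of 15 genes. At 28 min replicate 1 was lowest for 6 of the 11 DEGs, all 20 S phase genes and 8 of 15 G2/M genes. At 22 min the lists parted, with replicate 3 highest for 8 of the 11 DEGs and 17 of 20 S phase genes. In the G2/M list that kidney was lowest for all 15 genes. The 11 DEGs were called from these same values.

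Cell type markers moved too. The summed FPKM of 9 markers of nephron epithelium was 4330 to 4840 at 0 min, 1690 to 2060 at 28 min and 1340 to 3390 at 30 min, and 5 of the 9 fell at 28 min. The summed FPKM of 12 leukocyte markers was 33.8 to 48 at 0 min, 71.4 to 84.5 at 28 min and 75.5 to 108 at 30 min. Of these 12, 4 rose and 3 fell at 28 min, the macrophage genes Cd68 and Csf1r going from 3.38 to 24.4 FPKM and from 15.8 to 5.59 FPKM, and the lymphocyte markers Cd3e and Cd79a staying at or below 0.463 FPKM in the group means at 0, 16, 26, 28 and 30 min. The summed FPKM of 4 markers of endothelium and stroma was 26.7 to 32.6 at 0 min and 61.7 to 82.2 at 28 min, and 2 of the 4 rose. Their median log2 fold change was 0.46, from 0.11 for the endothelial gene Pecam1 to 2.72 for the stromal gene Col1a1. The part of these cell types in the levels of the repair genes was not tested.

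Other genes of the same pathways were taken from lists that hold none of the 43. Of all genes, 24.5% rose and 23.6% fell at 28 min against 0 min. At 28 min against 0 min, 17 of 25 other recombination genes rose and 5 fell, among them Mms22l (log2 fold change 1.40) and Tonsl (1.32), which act together at stalled forks. Of 19 other checkpoint genes 13 rose and 1 fell, among them Clspn (1.71), the adaptor of CHEK1, and Wee1 (1.19). Of 17 other base excision genes 7 rose and 3 fell, led by Lig1 (2.08) and Fen1 (1.58), which also join and trim Okazaki fragments. Of 16 other nucleotide excision genes 7 rose and 3 fell, of 9 other Fanconi genes 6 rose and 1 fell, and of 4 other mismatch genes 2 rose and 2 fell. Of 10 genes of non-homologous end joining, which works without a sister chromatid, 1 rose at 28 min, Xrcc6 (0.40), and none fell. Between 28 and 30 min 2 end joining genes rose and 3 fell, where 6.47% of all genes rose and 6.77% fell.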

How the data were processed

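Total RNA of 27 left kidneys was sequenced by the authors (DNBSEQ-G400), and the labels' clamp times gave the groups. The authors deposited FPKM per gene symbol and kidney, with 2 decimals and on a linear scale. The submitters' processing notes name Bowtie2, RSEM and DESeq2, without versions, and the build GRCm38.p6; the annotation and the use of strand are not given in the sources used here. No read counts were used, so depth is unknown and precision rests on 3 mice per group. The steps between the lowest values of 87 genes put the relative depth of the kidneys between 0.94 and 1.06, with 88% of the steps within 10%.

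Values were taken as log2(FPKM + 1), with a pseudocount of 1 FPKM, quantile normalized and fitted with limma 3.58.1 in R 4.3.3. The model had a mean for each clamp time, used all 27 kidneys and covered 18188 genes, those with a value above 0 in at least 3 kidneys. P-values are two-sided and adjusted over all genes tested. There were 11 comparisons, namely each time against 0 min, 28 against 26 min, 30 against 28 min, and 30 min against the mean of the 16 to 26 min groups. The fit was tested on simulated data. The genes and lists were chosen with earlier results of these data known. Values per kidney are given for genes that were DEGs in at least 1 comparison, and per pathway for the gene with the highest mean FPKM and the gene with the smallest change at 30 min; the other genes are given as group means, and genes outside the 43 as counts with at most 4 examples. The falling genes Xpa, Xpc, Atm, Msh3 and Brip1, and Ercc5, Ogg1 and Chek2, were added after their values were seen.

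Alternatives were no quantile normalization, a pseudocount of 0.1 FPKM, rescaling to a constant sum (TPM), a filter of at least 1 FPKM in 3 kidneys, no filter, eBayes with a trend, only the groups compared, a replicate block, and leaving out each kidney. Promoters were searched in Python 3.11.15, and figures drawn with matplotlib 3.10.9.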

Additional observations from a re-analysis of the deposited data

How the results depend on the processing

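No call of the 43 genes changed direction under any alternative. With a pseudocount of 0.1 FPKM, which weighs low genes more, more of the 43 genes were DEGs, with 9, 12, 11, 12, 12, 15, 18 and 7 at the 8 ischemia times from 16 to 30 min against sham, 12 at 30 against 28 min and 9 at 30 min against 16 to 26 min. Of all genes, between 4.37% at 16 min and 18% at 30 min were then DEGs against sham, 2.34% at 30 against 28 min and 10.7% at 30 min against 16 to 26 min. Rescaling to a constant sum (TPM), which raises values and so lowers the weight of the pseudocount, gave 5, 12, 10, 10, 11, 13, 16 and 3 at the same times against sham, where 3.16% (16 min) to 13.1% (30 min) of all genes were DEGs. The filter of at least 1 FPKM gave 0 at 16 min and 3 at 20 min. A fit of only the groups compared gave 0 at 16 min, 3 at 20 min and 0 at 30 against 28 min. The cause of these last changes was not tested. Calls over all genes were not counted for fits of only the groups compared or without 1 kidney.

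Leaving out 1 kidney at a time moved the count of DEGs against sham within 0 to 3 (16 min), 5 to 9 (18 min), 2 to 9 (20 min), 6 to 7 (22 min), 5 to 8 (24 min), 7 to 9 (26 min), 8 to 10 (28 min) and 1 to 2 (30 min). It was 0 to 0 at 28 against 26 min, 2 to 6 at 30 against 28 min and 1 to 4 at 30 min against 16 to 26 min. Over the called genes, 1673 repeats without 1 kidney kept the call and 268 lost it.

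Replicate numbers did not pair the kidneys. The residuals of same-numbered kidneys correlated above 0.1 in 25 of 108 pairs, with a median of -0.01, and 8 of 27 kidneys correlated best with a kidney of their own number. The replicate block left 8 DEGs at 28 min and 4 at 30 against 28 min, and 5 of 256 calls of single genes were lost under it. No scaling moved the median of all genes by more than 0.1 on the log2 scale. Without read counts, the depth limit of genes under 1 FPKM is unknown.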
